A study of Nicotiana tabacum with 78 samples.

Results

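Of the 2075 tobacco genes in the deposited expression table, 8 are described here: NITAB034145, NITAB052240, NITAB052241, NITAB052242, NITAB052243, NITAB075366, NITAB075372 and NITAB087574. They are annotated proteinase inhibitors, together with gene models whose identifiers lie close to theirs. They were chosen by their RPKM group means, which were at least 2-fold higher in topped than in untopped leaves of all 4 genotypes. The leaf contrast between topped and untopped plants therefore describes how the genes were chosen and is no finding. The root values were not part of that choice. Comparisons of leaves between genotypes, or of leaves with roots, use the leaf means that entered it. Every gene of the table had been called by the authors in roots. The calls were between untopped and topped plants of a PMT line, or between a line and TN90. Lines and TN90 were also compared in unlike treatments, untopped against topped. Topped and untopped TN90 roots were not compared with each other for that selection. An inhibitor is named for 5 of the 8 genes, and NITAB052240 and NITAB075372 have no match in either annotation column. NITAB052243 carries the name Ycf2, that of a protein encoded in the chloroplast genome of plants, and is included for its identifier.

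The study sequenced leaf and root RNA of 4 genotypes. TN90 is an untransformed Burley tobacco, and the lines PMT1, PMT2 and PMT3 carry an RNAi construct under the 35S promoter against putrescine N-methyltransferase (PMT), the enzyme that diverts putrescine into nicotine synthesis. Plants grew in a greenhouse and were left untopped or were topped at flowering by removing the top of the plant, and tissue was taken on the following day. The 4 genotypes, 2 tissues and 2 treatments make 16 groups of 4 or 5 samples by the labels, and each of the PMT groups comes from 1 transgenic line. The authors' list of libraries differs from the labels in 2 groups, with 3 libraries against 4 samples for topped TN90 leaves and 6 against 5 for topped PMT2 roots. For some PMT2 and PMT3 plants the labels give the leaf sample one treatment and the root sample the other, tissue tags often contradict sample titles, the descriptions of TN90 samples name PMT1, and 1 PMT2 sample could be put in no group. The values are the authors' group means, so values of PMT2 and PMT3 hold only if the authors placed each sample in the right group.

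Every level below is in RPKM, reads scaled to the length of the gene model and to the mapped reads of the library, which allows levels of different genes to be set side by side. Only the mean of each group was used, so no value has a replicate error and no difference was tested across plants. A fold is the ratio of RPKM + 0.1 between 2 group means, and a gene is counted as higher or lower at a fold of at least 2 with at least 1 RPKM in either group. The 77 listed libraries held from 16299684 to 517291516 reads. In topped PMT2 roots, 1 of 6 listed libraries had 95.89% of its reads mapped while the other 5 reached at most 87.54%, and leaf libraries ranged from 85.39% to 96.67%. The 5 PMT genes of the table served as a check of the group names of the means, which cannot check the labels of single samples. They lay between 67.5 and 276 RPKM in topped TN90 roots and between 4.97 and 37.7 RPKM in topped roots of the lines. In untopped roots these ranges, 5.54 to 36.5 RPKM in TN90 and 1.68 to 27.9 RPKM in the lines, overlapped. Photosynthesis genes, which mark leaf tissue, were 52.0-fold to 347-fold higher in leaves than in roots of the same genotype and treatment.

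Plants make proteinase inhibitors as small proteins that block digestive enzymes of feeding insects and of microbes. In tobacco, tomato and potato many of them are induced by wounding through jasmonate, a hormone made from fatty acids, and in tomato also by the peptide systemin. Kunitz inhibitors and the type I and type II inhibitors act on serine proteases such as trypsin and chymotrypsin, and metallocarboxypeptidase inhibitors act on enzymes that cut residues from the end of a peptide.

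The Kunitz member, NITAB034145, named Kunitz trypsin inhibitor 2, had the highest level of the 8 genes in every leaf group. In untopped leaves its level was 71.3 RPKM in PMT1, 67.3 RPKM in PMT2, 38.9 RPKM in PMT3 and 56.2 RPKM in TN90. After topping the leaf level was 267 RPKM in PMT1, 151 RPKM in PMT2, 241 RPKM in PMT3 and 227 RPKM in TN90, so that all 4 topped means lay above all 4 untopped means, with folds of 2.24 in PMT2 to 6.18 in PMT3. Roots held little of this transcript. In untopped roots its level was 1.14 RPKM in PMT1, 2.32 RPKM in PMT2, 1.41 RPKM in PMT3 and 1.96 RPKM in TN90, against 9.36, 12.6, 5.52 and 2.66 RPKM in the same order after topping. The 3 lines reached root folds of 7.60 (PMT1), 5.25 (PMT2) and 3.73 (PMT3), whereas TN90 reached 1.34.

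NITAB075366, the type I member, matches proteinase inhibitor I-B of tobacco and is the only one of the 8 genes annotated with the response to wounding. Its leaf level was 10.2 RPKM in PMT1, 10.4 RPKM in PMT2, 3.83 RPKM in PMT3 and 4.86 RPKM in TN90 before topping. Topped leaves held 39.0 RPKM in PMT1, 36.4 RPKM in PMT2, 9.40 RPKM in PMT3 and 31.2 RPKM in TN90. PMT3 stood low in both treatments, and its topped mean fell below the untopped means of PMT1 and PMT2, which makes this the only one of the 8 genes whose topped and untopped leaf groups overlapped. In roots the untopped levels were 1.89 RPKM in PMT1, 0.892 RPKM in PMT2, 0.457 RPKM in PMT3 and 1.22 RPKM in TN90, and the topped levels were 14.9, 5.19, 6.81 and 1.44 RPKM. The root fold was 7.53 in PMT1, 5.34 in PMT2 and 12.4 in PMT3, and 1.16 in TN90, where the topped mean stayed below the untopped mean of PMT1.

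Close to NITAB075366 by identifier, NITAB075372 has no annotated function, and its level was second only to that of the Kunitz member in all 8 leaf groups. Untopped leaves held 55.2 RPKM in PMT1, 49.8 RPKM in PMT2, 26.8 RPKM in PMT3 and 45.9 RPKM in TN90, and topped leaves 181, 113, 98.9 and 122 RPKM. The leaf groups did not overlap, and the folds ran from 2.26 in PMT2 to 3.68 in PMT3. Root levels were near the counting minimum of 1 RPKM, at 0.972 RPKM in PMT1, 0.282 RPKM in PMT2, 0.478 RPKM in PMT3 and 0.494 RPKM in TN90 before topping and 2.36, 2.13, 1.94 and 0.983 RPKM after it. The topped TN90 mean barely exceeded the highest untopped mean, that of PMT1.

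The 4 gene models with consecutive identifiers, NITAB052240 to NITAB052243, include both type II members. NITAB052241 is named proteinase inhibitor type-2 TR8 and NITAB052242 matches proteinase inhibitor II of tomato. In leaves NITAB052241 went from 0.658 RPKM in PMT1, 0.403 RPKM in PMT2, 0.520 RPKM in PMT3 and 1.20 RPKM in TN90 to 6.53, 3.73, 10.4 and 7.30 RPKM. Its folds of 5.67 in TN90 to 16.9 in PMT3 gave it the largest mean leaf fold of the 8 genes, at 3.16 on the log2 scale, which ranked 2 of the 2075 table genes. That rank rests on the leaf folds for which the genes were chosen. Untopped leaf means of the lines were below 1 RPKM, where a fold moves with the pseudocount. Root levels of NITAB052241 were 1.80 RPKM in PMT1, 1.61 RPKM in PMT2, 1.68 RPKM in PMT3 and 1.33 RPKM in TN90 before topping, and 5.76, 7.73, 6.27 and 5.45 RPKM after it. The 4 root folds, from 3.08 in PMT1 to 4.57 in PMT2, included a TN90 value of 3.89, so that this gene was the only one of the 8 whose root fold in TN90 was not below those of all 3 lines.

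NITAB052242 had the lowest level of these 4 gene models in all 16 groups. In leaves its level went from 0.611 RPKM in PMT1, 0.278 RPKM in PMT2, 0.344 RPKM in PMT3 and 0.318 RPKM in TN90 to 2.87, 2.15, 3.55 and 3.40 RPKM. The untopped leaf means were all below 1 RPKM, where a fold moves with the pseudocount. Its root levels were 0.770 RPKM in PMT1, 0.610 RPKM in PMT2, 0.473 RPKM in PMT3 and 1.09 RPKM in TN90 without topping, and 1.61, 2.79, 2.35 and 1.39 RPKM with it. The root folds were 1.25 in TN90, 1.97 in PMT1, 4.06 in PMT2 and 4.28 in PMT3.

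NITAB052240, without a match, had levels close to those of its neighbour NITAB052241. Its untopped leaf level was 0.639 RPKM in PMT1, 0.522 RPKM in PMT2, 0.414 RPKM in PMT3 and 1.03 RPKM in TN90, and its topped leaf level was 5.67, 3.30, 9.65 and 6.12 RPKM. The ratio of NITAB052241 to NITAB052240 stayed between 0.773 and 1.26 in the 8 leaf groups and between 0.891 and 2.29 in the 8 root groups. Root levels of NITAB052240 were 1.34 RPKM in PMT1, 0.705 RPKM in PMT2, 1.03 RPKM in PMT3 and 1.49 RPKM in TN90 before topping, against 4.72, 5.12, 4.24 and 3.28 RPKM after it. The authors' mapping allowed a read to match several places, and whether these adjacent models share reads was not tested.

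NITAB052243 was the most abundant of these 4 gene models in all 16 groups, at 6.01-fold to 23.8-fold the level of NITAB052241. TN90 stood apart in untopped leaves, with 24.1 RPKM against 6.70 RPKM in PMT1, 3.76 RPKM in PMT2 and 7.00 RPKM in PMT3. After topping the leaf levels were 71.5 RPKM in PMT1, 31.5 RPKM in PMT2, 62.6 RPKM in PMT3 and 60.3 RPKM in TN90, and the smallest leaf fold, 2.50 in TN90, went with the highest untopped level. Roots held 18.2 RPKM in PMT1, 19.7 RPKM in PMT2, 14.5 RPKM in PMT3 and 31.7 RPKM in TN90 without topping, and 114, 94.1, 43.4 and 80.0 RPKM with it. It was the most abundant of the 8 genes in all root groups but untopped PMT2 roots, where NITAB087574 was higher.

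The metallocarboxypeptidase inhibitor NITAB087574 was the most even of the 8 genes across tissues. Leaves held 21.4 RPKM in PMT1, 12.8 RPKM in PMT2, 17.6 RPKM in PMT3 and 12.5 RPKM in TN90 before topping, and 61.4, 45.7, 42.4 and 42.8 RPKM after it. The corresponding root levels were 12.9, 21.7, 10.9 and 17.2 RPKM and then 49.8, 49.8, 35.1 and 30.8 RPKM. No topped mean fell below an untopped mean within either tissue. The root fold was smallest in TN90, at 1.78, and 2.29 to 3.85 in the lines.

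**Figure D1:**
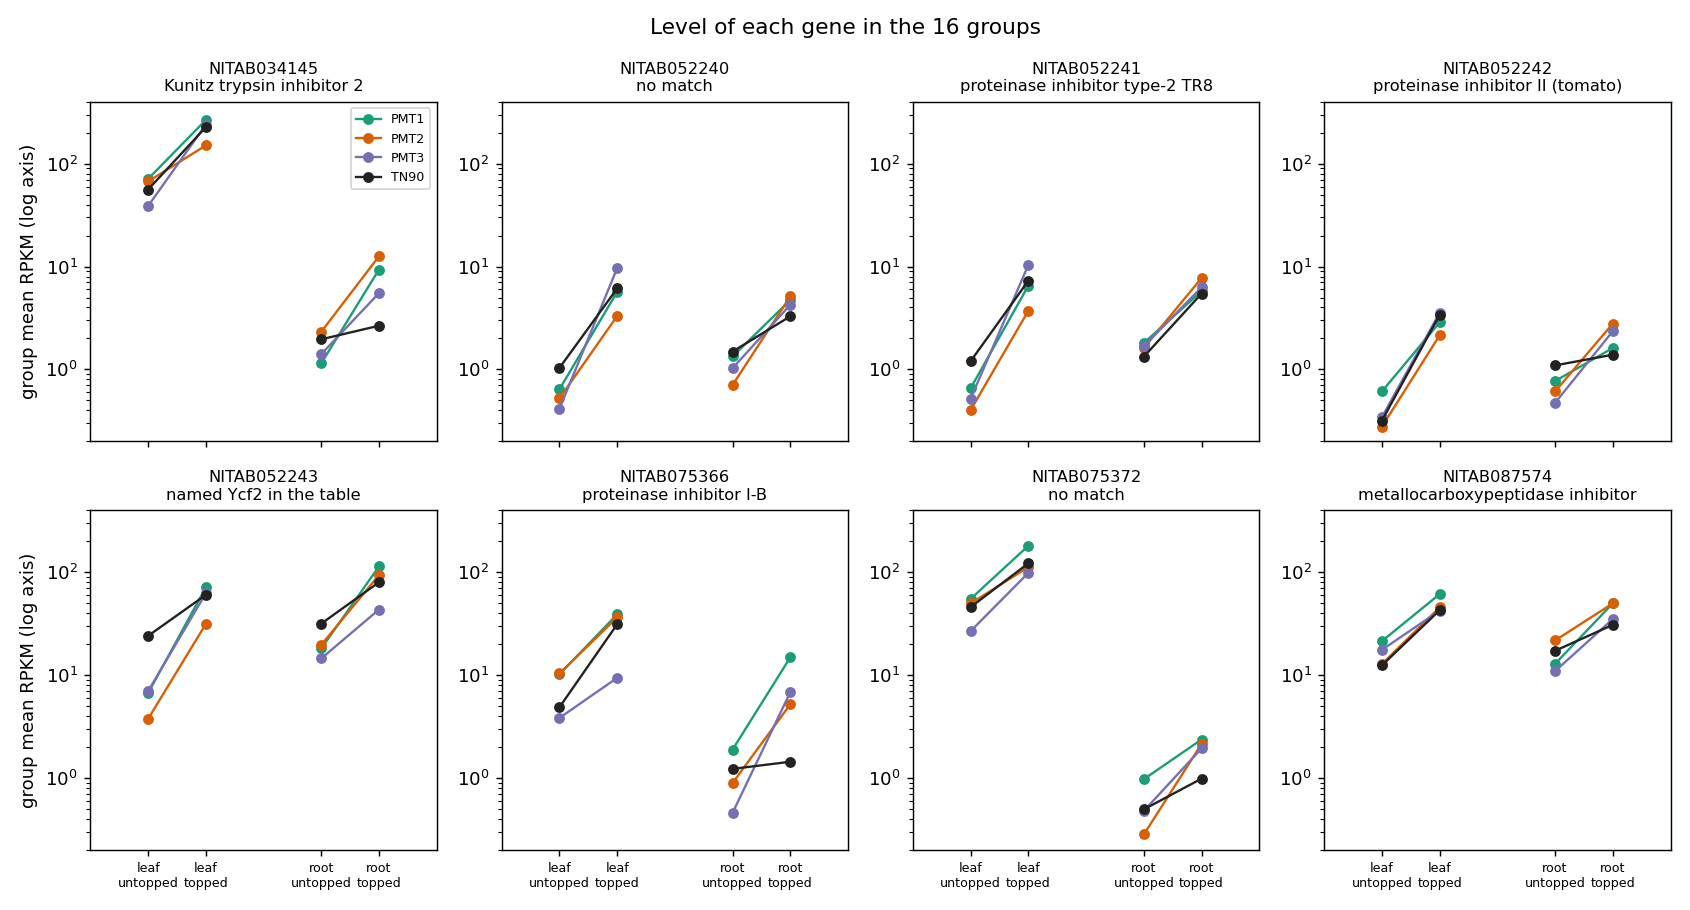
Group mean RPKM (log axis) of each of the 8 genes in untopped and topped leaves and roots, with 1 line per genotype joining the authors' means for untopped and topped plants and no error bars. All leaf lines climb, NITAB034145 and NITAB075372 lie far lower in roots than in leaves, and the TN90 root lines of NITAB034145, NITAB052242 and NITAB075366 are nearly flat, with folds of 1.34, 1.25 and 1.16.

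In leaves, the count of members higher after topping is set by the choice of the genes. All 8 were at least 2-fold higher in each genotype, where 3.37% (PMT1), 2.65% (PMT2), 4.29% (PMT3) and 7.61% (TN90) of the table genes were. Only 10 table genes, 0.482% of 2075, were higher in all 4 genotypes. The pair outside the 8 was NITAB085553, named TIFY 6a, a member of the family of jasmonate response repressors, with leaf folds of 2.48 to 3.50, and NITAB033393, an electron transfer flavoprotein subunit, with leaf folds of 3.82 to 8.21. Just inside the 2-fold line were NITAB034145 at 2.24 and NITAB075372 at 2.26, both in PMT2. Just outside it were NITAB097261, an extensin-like protein that missed it at 1.98 in PMT2, and NITAB020479, a nucleoside-triphosphatase that missed it at 1.77 in PMT3. All 4 topped leaf means exceeded all 4 untopped leaf means for 7 of the 8 genes, against 4.19% of the table.

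The median leaf fold of the 8 genes was 4.71 in TN90, 3.99 in PMT1, 4.40 in PMT2 and 7.13 in PMT3, while the median of all table genes was 1.00 to 1.05. The genes differed in which genotype led. PMT3 had the largest leaf fold for NITAB034145, NITAB052240, NITAB052241 and NITAB075372 and the smallest for NITAB075366 and NITAB087574, and TN90 had the largest for NITAB075366 and NITAB052242. Leaf folds were larger in each PMT line than in TN90 for 2 of the 8 genes, NITAB052241 and NITAB052243, against 28.2% of the table.

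In roots, the folds on topping must be read with the make-up of the table, which took in genes for changes on topping in the PMT lines or for differences of a line from TN90. Those differences included untopped plants of a line against topped TN90 and topped plants of a line against untopped TN90. A gene with a small TN90 fold could enter through a topping change in a line or a difference of a line from TN90. A gene with a large TN90 fold could enter through the comparisons of unlike treatments. The order of lines and TN90 thus depends in part on that selection, for the 8 genes as for the table. Of the 8 genes, 7 were at least 2-fold higher in topped PMT1 roots, where 21.2% of the table was. All 8 were higher in PMT2, against 12.2%, and in PMT3, against 26.5%. In TN90 only NITAB052240, NITAB052241 and NITAB052243 were, 3 of 8, against 45.6%. That share is of genes selected in part against TN90 plants of the other treatment. By the paper's own calls, fewer genes differed between untopped and topped roots in TN90 than in any line. The median root fold of the 8 genes was 3.60 in PMT1, 4.99 in PMT2 and 3.66 in PMT3, with table medians of 1.35, 1.09 and 1.31, whereas in TN90 the median was 1.80 for the 8 genes and 1.87 over all table genes. With each group's values centred on the median of its column, the TN90 root median of the 8 genes was 0.19 on the log2 scale. In TN90 roots NITAB034145, NITAB052242 and NITAB075366 turned to -0.24, -0.34 and -0.44, whereas no root fold of a line turned negative. On that scale the column median went from 2.13 to 2.79 in TN90 roots. In the lines it went from 2.35 to 2.78 (PMT1), 2.63 to 2.81 (PMT2) and 1.98 to 2.41 (PMT3). Centring takes off that shift, so the centred values depend on which genes the table holds and are no check of the TN90 folds.

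For 7 of the 8 genes, NITAB052241 being the exception, the root fold was larger in each of the 3 lines than in TN90. That order held for 404 table genes, 19.5%. NITAB075366 showed the widest gap, with 5.34 to 12.4 in the lines and 1.16 in TN90, followed by NITAB034145, with 3.73 to 7.60 in the lines and 1.34 in TN90. The NITAB075366 folds in PMT2 and PMT3 start from untopped root levels of 0.892 and 0.457 RPKM, where a fold moves with the pseudocount. No replicate value stands behind these folds, and the difference between genotypes was not tested. All 4 topped root means exceeded all 4 untopped root means for 7 of the 8 genes, NITAB075366 being the exception, against 11.4% of the table. Only the 3 genes that were higher in TN90 were higher in all 4 genotypes, against 7.57% of the table.

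**Figure D2:**
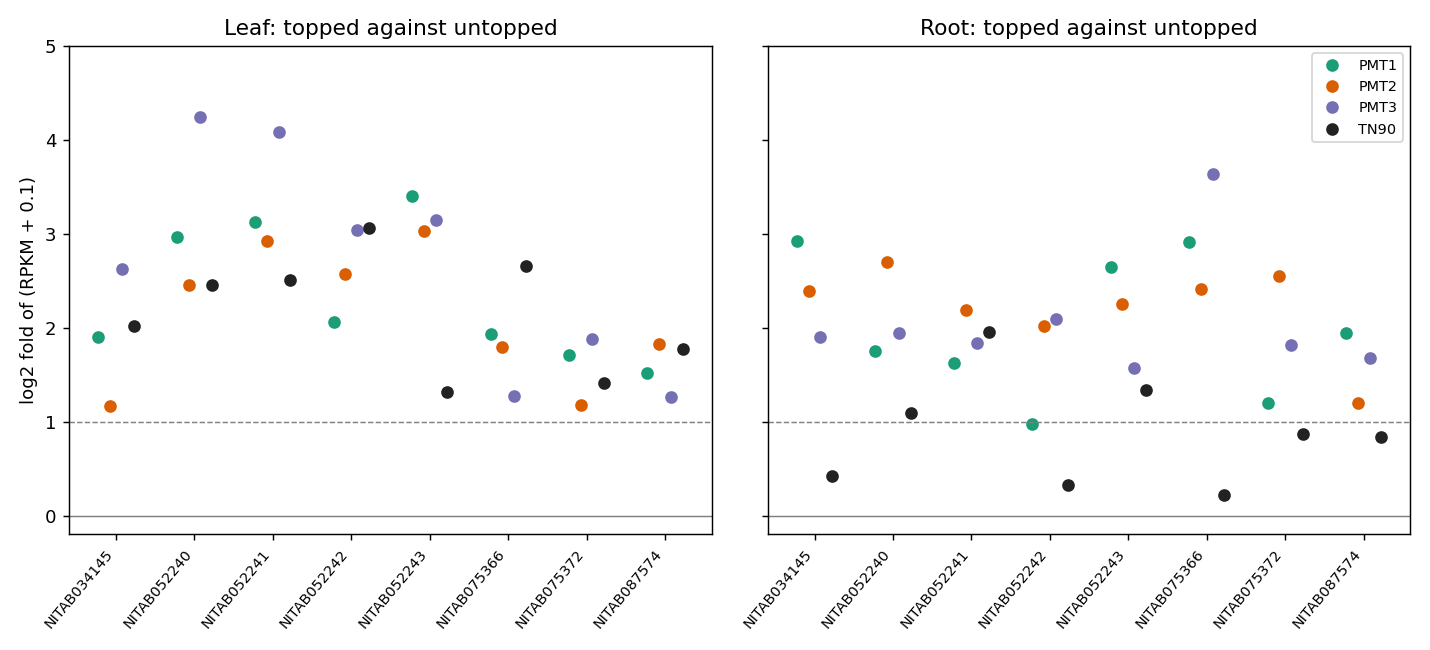
Log2 fold of topped over untopped group means (RPKM + 0.1) for the 8 genes, leaves in the first panel and roots in the second, with 1 point per genotype, a solid line at no change and a dashed line at 2-fold. All leaf points lie above 2-fold because the genes were chosen for it, whereas in roots 5 of 8 TN90 points lie below the dashed line.

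Topped roots of the lines were then set against topped roots of TN90. Of the 8 genes, 3 were at least 2-fold higher in PMT1, 3 in PMT2 and 2 in PMT3, where 4.14%, 5.01% and 4.92% of the table were. NITAB034145 was 3.43-fold higher in PMT1, 4.60-fold in PMT2 and 2.04-fold in PMT3 topped roots than in TN90 topped roots. NITAB075366 was 9.73-fold, 3.45-fold and 4.50-fold higher in the same comparison. Both genes were thus higher in each line, a pattern shared by 24 table genes, 1.16%. NITAB075372 followed with 2.27-fold, 2.06-fold and 1.88-fold. Means of all 3 lines lay above the TN90 mean for 7 of the 8 genes, against 11.2% of the table, and the exception was NITAB052243, at 0.54-fold in PMT3.

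Before topping, no member was at least 2-fold higher than in TN90 in untopped roots of any line, where 8.77% (PMT1), 38.3% (PMT2) and 5.54% (PMT3) of the table were, and 3 were lower in PMT3, namely NITAB052242, NITAB052243 and NITAB075366, against 8.63%. All 3 comparisons share the TN90 mean, so the ratios are not independent of one another.

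Untopped leaves of the lines held less NITAB052243 than those of TN90. The TN90 level of NITAB052243 was 3.56-fold that of PMT1, 6.26-fold that of PMT2 and 3.41-fold that of PMT3. Summed over NITAB052240 to NITAB052243, the leaf level before topping was 8.61 RPKM in PMT1, 4.97 RPKM in PMT2, 8.28 RPKM in PMT3 and 26.6 RPKM in TN90. After topping it was 86.6, 40.6, 86.2 and 77.1 RPKM. In untopped leaves NITAB052243 made up 75.8% (PMT2) to 90.4% (TN90) of that sum, so the sum mostly repeats this 1 gene. In all, 1 of the 8 genes was at least 2-fold lower than TN90 in PMT1, 2 in PMT2 and 3 in PMT3 untopped leaves, with backgrounds of 4.43%, 8.63% and 3.47%. NITAB075366 went the other way in PMT1 and PMT2, at 2.07-fold and 2.11-fold the TN90 level, where 1.98% and 4.24% of the table were higher, and no member was higher in PMT3, against 1.35%. In topped leaves only NITAB075366 in PMT3, at 0.30-fold, passed 2-fold in either direction. The share of the table that was lower there was 5.06% in PMT1, 3.57% in PMT2 and 6.41% in PMT3, and the share that was higher was 6.65%, 6.7% and 11.8%.

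**Figure D3:**
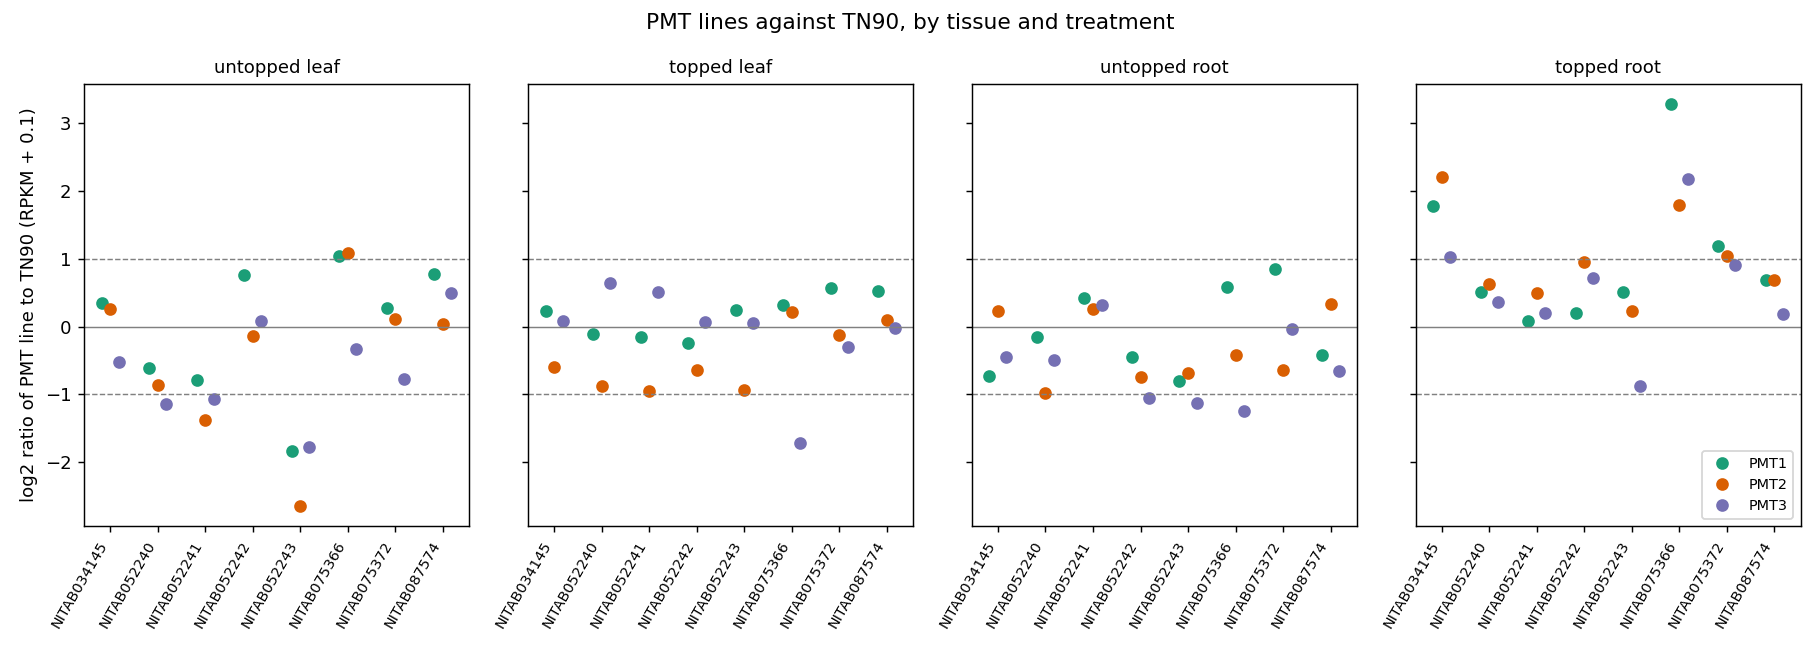
Log2 ratio of each PMT line to TN90 for the 8 genes in the 4 combinations of tissue and treatment, with 1 point per line, a solid line at equal levels and dashed lines at 2-fold either way. NITAB034145 and NITAB075366 lie above 2-fold in topped roots of all 3 lines, and NITAB052243 lies below 2-fold in untopped leaves of all 3.

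By tissue the 8 genes fell into a leaf-high set and a set present in both organs. NITAB034145 and NITAB075372 had each of their leaf means above all of their root means, with leaf to root folds of 11.9 to 82.5 and 46.6 to 131 in the 8 pairs of one genotype and treatment. NITAB075366 was higher in leaves in all 8 pairs, by 1.37-fold in topped PMT3 to 20.4-fold in topped TN90. The other 5 genes had a lower leaf than root level in untopped plants in all 4 genotypes for NITAB052240 to NITAB052243 and in 2 of 4 for NITAB087574, an order that turned in every case once columns were centred on the median of these root-selected genes. After topping, NITAB052240, NITAB052241, NITAB052242 and NITAB087574 were higher in leaves than in roots in 3 of 4 genotypes, PMT2 being the exception, and NITAB052243 in 1, PMT3. The topped leaf levels in this comparison entered the choice of the genes.

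Root levels of the leaf-high genes were set beside those of 3 photosynthesis genes, CP29.2 (NITAB039355), the Rubisco small chain S41 (NITAB060684) and the photosystem II 10 kDa polypeptide (NITAB031702). Root levels of the photosynthesis genes were 0.272% to 1.89% of the leaf level in the same genotype and treatment. NITAB075372 lay in much the same range, 0.566% to 1.96%. What part leaf RNA has in the root levels of the leaf-high genes was not tested. NITAB034145 lay between 1.17% and 8.36% and NITAB075366 between 4.60% and 72.4%. On topping, the summed root level of the 3 photosynthesis genes went from 20.5 to 14.1 RPKM in PMT1, from 17.6 to 12.5 RPKM in PMT2 and from 20.8 to 7.98 RPKM in PMT3, and from 15.2 to 18.4 RPKM in TN90. The part of the topped PMT2 root library with a high mapping percentage in these values was not tested.

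**Figure D4:**
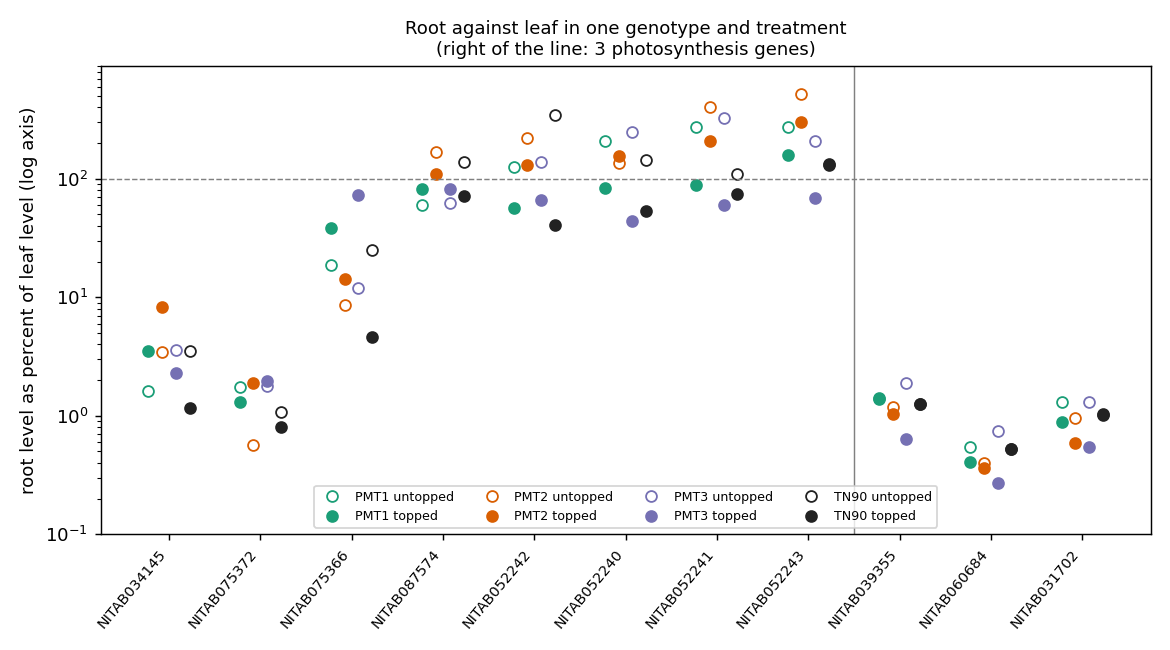
Root level as percent of the leaf level of the same genotype and treatment (log axis) for the 8 genes and, right of the line, 3 photosynthesis genes, with open circles for untopped and filled circles for topped plants and a dashed line at equal levels. NITAB075372 lies near the photosynthesis genes, NITAB034145 overlaps them at its lowest points (1.17% and 1.61%), NITAB075366 lies above them, and the other 5 genes lie around the dashed line.

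Summed over the 8 genes, the level was 95.5 to 167 RPKM in untopped leaves, 386 to 635 RPKM in topped leaves, 31.0 to 56.5 RPKM in untopped roots and 106 to 203 RPKM in topped roots. In leaves NITAB034145 made up 38.5% to 50.4% of that sum. In roots NITAB052243 made up 41.1% to 63.5% of it. The sum for NITAB034145, NITAB075366 and NITAB075372 in roots was 6.64-fold higher after topping in PMT1, 5.70-fold in PMT2, 6.09-fold in PMT3 and 1.38-fold in TN90.

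Over the 16 group means, log2 levels of the 8 genes correlated more closely within these sets than between them. Pearson's r was 0.83 to 0.98 among NITAB034145, NITAB075366 and NITAB075372 and 0.83 to 0.97 among NITAB052240 to NITAB052243. NITAB087574 went with the latter, at 0.77 to 0.89. Between the 3 leaf-high genes and NITAB052240 to NITAB052243, r was -0.10 to 0.50. Within the 8 leaf groups alone r was 0.574 to 0.995 over all 28 pairs, and within the 8 root groups 0.76 to 0.95. In leaves alone, r between the 3 leaf-high genes and NITAB052240 to NITAB052243 was 0.57 to 0.96. Among the 3 leaf-high genes it was 0.80 to 0.96 there, so the sets overlapped. The sets were formed from leaf and root levels in these same 16 means, which fixes much of the order over both tissues. The points also share libraries and the topping contrast for which the genes were chosen, so these values are descriptions.

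Table genes most like the mean standardised profile of the 8 genes over the 16 groups were taken by Pearson's r. NITAB052245, wound-induced proteinase inhibitor 2, came first at 0.83, then NITAB085553 (TIFY 6a) at 0.78, NITAB018010 (ethylene-responsive proteinase inhibitor 1) and NITAB063239 (a jasmonate zim-domain protein), both at 0.76, and NITAB045135 (a polyadenylate-binding protein-interacting protein) at 0.74. NITAB062193 (Hop-interacting protein THI031), NITAB019877 (a cellulose synthase subunit) and NITAB060908 (a granule-bound starch synthase) followed at 0.70, 0.69 and 0.68. The 8 genes themselves ranged from 0.55 to 0.92 against their own mean.

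NITAB052245 lies close to the type II cluster by identifier and is the only other table gene within 10 numbers of a member. Its leaf level was 63.3 RPKM in PMT1, 43.3 RPKM in PMT2, 64.6 RPKM in PMT3 and 124 RPKM in TN90 before topping, and 174, 119, 217 and 165 RPKM after it. As for NITAB052243, the untopped TN90 leaf mean was the highest of the 4. In roots it went from 82.7 to 174 RPKM in PMT1, from 68.3 to 161 RPKM in PMT2, from 71.2 to 153 RPKM in PMT3 and from 101 to 167 RPKM in TN90, with a fold below 2 only in TN90, at 1.65. NITAB018010, the other type I gene of the table, also had its smallest folds in TN90, with 1.19 in leaves and 3.85 in roots against 2.23 to 4.16 and 5.85 to 10.5 in the lines.

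By the names in the table, fruit-specific proteins included, 27 genes were taken as protease inhibitors, of which 5 are among the 8. Genes named fruit-specific protein were placed in the metallocarboxypeptidase inhibitor class. In 18 of the other 22 every root mean exceeded every leaf mean, against 67.6% of the table genes, and 16 were below 1 RPKM in every leaf group, against 48.9%. None of the 22 had every leaf mean above every root mean, against 2.27% of the table. Of the 22, 1 was higher after topping in TN90 leaves, 3 in PMT1, 4 in PMT2 and 3 in PMT3. Of all table genes 7.61%, 3.37%, 2.65% and 4.29% were, in the same order. The 16 genes below 1 RPKM in leaves could not be counted there. None of the 22 was higher in all 4 genotypes, which follows from how the 8 genes were chosen. The median log2 leaf fold of the 22 was 0.02 to 0.10, close to the table medians of 0.00 to 0.07.

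In roots the other 22 inhibitors had their largest folds in PMT3 and TN90. Of the 22, 15 were higher after topping in TN90, 10 in PMT1, 8 in PMT2 and 18 in PMT3, where 45.6%, 21.2%, 12.2% and 26.5% of the table were. None was lower in any genotype, but the share of the table that was lower was not counted. The median log2 root fold of the 22 was 1.46 in TN90, 0.89 in PMT1, 0.51 in PMT2 and 1.48 in PMT3. By class, the 6 other Kunitz genes were all higher in TN90 roots and 4 were higher in each line. The metallocarboxypeptidase inhibitor class held 10 other genes, most of them named fruit-specific protein. Of these, 6 were higher in TN90 roots, 3 in PMT1, 2 in PMT2 and 9 in PMT3. The highest root level of any inhibitor was that of NITAB057682, a fruit-specific protein of this class, at 355 RPKM in topped PMT2 roots, and its leaf level did not exceed 0.579 RPKM. NITAB050197, a Kunitz gene, held 12.1 to 46.6 RPKM in roots and at most 0.132 RPKM in leaves.

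**Figure D5:**
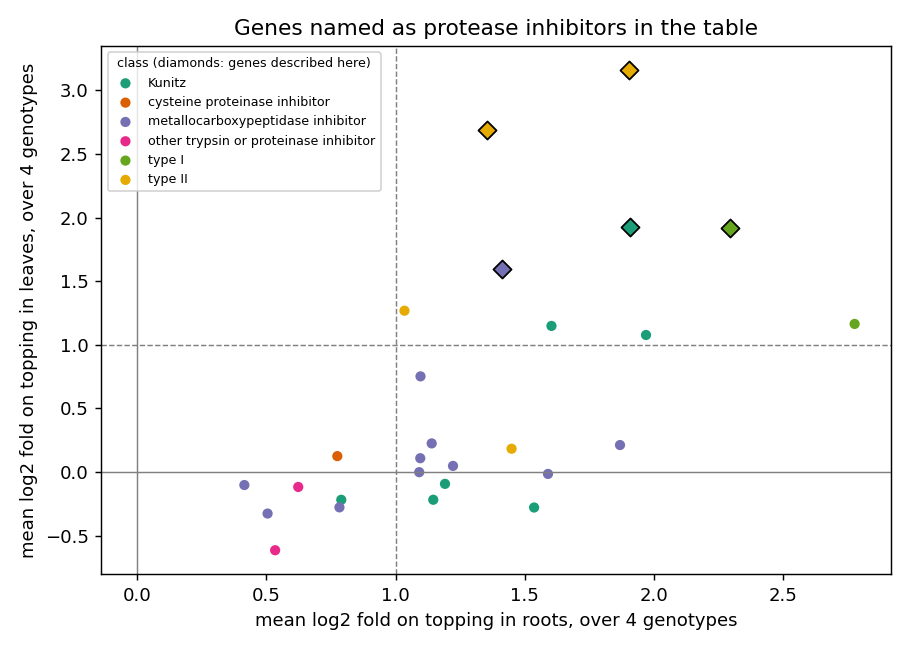
Mean log2 fold on topping over the 4 genotypes in roots (horizontal) and leaves (vertical) for the 27 genes taken as protease inhibitors, fruit-specific proteins included. Colours give the class and diamonds the 5 that are among the 8 genes, with solid lines at no change and dashed lines at 2-fold. The diamonds lie highest because they were chosen for leaf folds, and most other inhibitors lie near 0 in leaves while having positive root folds.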

How the data were processed

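The authors mapped paired-end reads of stranded total RNA libraries with Qiagen CLC Genomics Workbench and allowed a read several hits. They deposited, per library, read counts and the percent of reads mapped, and, for 2075 genes called in roots with a tool based on edgeR's exact test, the RPKM mean of each group. The deposited RPKM values are the authors' means over libraries, so no count test, standard deviation or p-value across plants was computed. The authors' own lists of fold changes and p-values were not used.

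Groups followed sample titles and treatment labels, and columns were matched to groups by name. Folds were differences of log2(RPKM + 0.1), and a gene was counted at a fold of 2 with 1 RPKM in either group. The genes, lists and rules were chosen with earlier results of these data known. Named were the 8 genes, the 8 most alike table genes, the other protease inhibitors highest in either tissue or within 10 identifiers, up to 4 genes each of the jasmonate and polyphenol oxidase lists by mean absolute leaf fold, and the photosynthesis and PMT genes used as checks. The counting step was tested on simulated data. None of the 2075 identifiers was found in the reference gene table (0 matched), so names are those of the deposited table and no sequence or position is shown. Alternatives were other pseudocounts, RPKM minimums, a fold of 4, centred columns and leaving out each genotype. Folds and counts were computed with pandas 2.3.3 and numpy 2.4.6 in Python 3.11.15, and plots were drawn with matplotlib 3.10.9.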

Additional observations from a re-analysis of the deposited data

Results flagged for a closer look

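Within groups of 4 to 6 listed libraries, read count and percent mapped were searched for a library far from the others. In 30 combinations of group and measure, 8 had such a library, where chance gives about 1 in 20 for each search. The highest read counts were 508326446 in topped PMT2 leaves, 517291516 in untopped PMT3 leaves and 138184962 in untopped PMT2 roots. The lowest percent mapped stood apart at 92.2% in topped PMT1 leaves, 90.42% in topped PMT2 leaves, 91.71% in untopped PMT2 leaves and 88.36% in untopped PMT3 leaves, and the highest at 86.34% in untopped PMT3 roots. These libraries entered the group means, and values without them were not computed here.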

How the results depend on the processing

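Pseudocounts of 0.01 and 1 RPKM and dropping the RPKM minimum left all counts of members higher after topping within 1.5 times, and the median fold of the 8 genes stayed on its side of 2-fold in each tissue and genotype. With a minimum of 5 RPKM, 5 genes were counted in PMT2 leaves and 5 in PMT3 roots. At a fold of 4, the leaf counts were 5 in TN90, 4 in PMT1, 4 in PMT2 and 5 in PMT3. The root counts were 0 in TN90, 3 in PMT1, 7 in PMT2 and 2 in PMT3. With each column centred on its median over the table, 1 gene was counted in TN90 roots, a count that depends on which genes the table holds. Without TN90, 7 genes were higher in roots of all remaining genotypes, against 3 with it. Because the table holds genes called in roots, centring raises leaf over root for every gene, and all 25 negative log2 ratios of leaf to root of the 64 turned positive. Of these, 10 had been at least 2-fold. In untopped plants they became 1.76 (NITAB052241) and 1.67 (NITAB052243) in PMT1, 1.44 (NITAB052241) and 0.85 (NITAB052243) in PMT2, 1.44 (NITAB052240), 1.05 (NITAB052241) and 1.53 (NITAB052243) in PMT3 and 1.31 (NITAB052242) in TN90. In topped PMT2 they became 2.18 (NITAB052241) and 1.63 (NITAB052243). Centring also changed the sign of 8 of 96 log2 ratios of a line to TN90, none of which had exceeded 0.33 in size, and the pseudocounts changed the sign of none. No paired analysis was possible because only group means were used. The means hide the spread between plants, levels under 1 RPKM rest on few reads, and folds of the adjacent models may not be independent.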

Other observations

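Of 27 jasmonate genes, 6 were at least 2-fold higher in topped TN90 leaves, 1 in PMT1, 5 in PMT2 and 10 in PMT3, and NITAB085553 was so in all 4. The shares of all table genes were 7.61%, 3.37%, 2.65%, 4.29% and 0.482%. NITAB030383, named allene oxide cyclase 3, an enzyme of jasmonate synthesis, had leaf folds of 3.69 in TN90, 1.51 in PMT1, 2.87 in PMT2 and 7.21 in PMT3. The repressor genes NITAB044935 and NITAB083826, both named TIFY 10b, had leaf folds of 5.69 and 4.27 in PMT2, 5.27 and 3.97 in PMT3, 1.60 and 1.45 in PMT1 and 0.92 and 1.12 in TN90, and their topped PMT2 leaf levels, 0.690 and 0.591 RPKM, were under the minimum of 1 RPKM. In roots 16 jasmonate genes were higher in TN90, 13 in PMT1, 13 in PMT2 and 15 in PMT3, and 9 were higher in all 4, where 45.6%, 21.2%, 12.2%, 26.5% and 7.57% of the table were. Lower after topping were 3 jasmonate genes in TN90 roots, 3 in PMT1 roots and 2 in TN90 leaves. The share of table genes lower after topping was not counted, so these 3 counts have no background to be read against.

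The table holds 7 polyphenol oxidase genes, which encode enzymes that brown damaged tissue. In topped roots 6 were higher in TN90, 5 in PMT1, 4 in PMT2 and 6 in PMT3. The shares of the table there were 45.6%, 21.2%, 12.2% and 26.5% in the same order. In leaves 1 was higher in PMT1, against 3.37% of the table, and none in the other genotypes. Their leaf shares of the table were 7.61% (TN90), 2.65% (PMT2) and 4.29% (PMT3). All but NITAB042159 stayed under 1 RPKM in every leaf group and could not be counted there. Below that minimum, NITAB052514 had leaf folds of 2.60 in PMT3 to 4.29 in TN90. NITAB042159 reached 14.5 RPKM in roots and 1.37 RPKM in leaves. Of 11 genes annotated with the response to wounding, NITAB075366, which was chosen for it, was higher in leaves of all 4 genotypes and the other 10 were not, and 5 were higher in roots of all 4, against 7.57% of the table. A word such as protease or peptidase in either annotation name picked 32 genes, some with another main name, such as photosystem II protein D1 (NITAB010977). Of these 32, none was higher in leaves of all 4 genotypes, against 0.482% of the table, and 1 was in roots, against 7.57%.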
